A study of Mus musculus with 12 samples.

Results

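This account describes the effect of estradiol that was shared by both genotypes of a mouse study of the mammary gland and the cell cycle gene Ccnd1. All 12 arrays of the series entered it: 6 from estradiol-treated and 6 from placebo-treated mice, with genotype held as a blocking factor, over 18193 genes. The glands came from ovariectomized virgin C57BL/6 females in 4 groups of 3 mice: Ccnd1-/- with estradiol, Ccnd1+/+ with estradiol, Ccnd1-/- with placebo and Ccnd1+/+ with placebo. Ccnd1-/- is called knockout and Ccnd1+/+ wildtype from here on. Estradiol came from implanted pellets of 0.72 mg with 60-day release, and all mice were treated for 7 days. Every mouse, controls included, thus lacked ovaries, and the placebo groups stand for glands without ovarian hormone. The mice were separate animals per the series description. Their ages, the gland taken and the handling of its lymph node are not given in the labels, and how the Ccnd1 allele was made is not given either.

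Estradiol acts through nuclear receptors, of which estrogen receptor alpha, the product of Esr1, carries most of the response in the mammary gland. The receptor binds DNA at estrogen response elements, often far from the genes it regulates, and it is present in a fraction of the luminal epithelial cells and in stromal cells. Cells that hold the receptor send paracrine signals such as amphiregulin and Wnt ligands to their neighbours, and the progesterone receptor gene Pgr and Greb1 are classical targets. Cyclin D1, the product of Ccnd1, binds the kinases that drive the passage from G1 to S phase and is itself known as an estrogen target.

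Values are log2 intensities on Affymetrix arrays, normalized by the authors. A difference is the estradiol mean minus the placebo mean on the log2 scale, and its standard error (SE) comes from a limma fit of genotype and treatment over all 12 arrays. Calls rest on an adjusted p under 0.05 (Benjamini-Hochberg over all 18193 genes, two-sided), and the adjusted p-values given are from that fit. Intensities of different probe sets do not share a scale, so levels are compared between arrays and never between genes. Since each array holds RNA of a piece of whole gland, a lower level from fewer cells of a type and one from less RNA per cell cannot be told apart.

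The arrays had medians of 5.73 to 5.80 over all probe sets, and their number limits the precision. Ccnd1 measured 7.55, 7.44 and 7.24 in knockout estradiol arrays and 9.90, 10.82 and 9.35 in wildtype estradiol arrays, against 7.68, 7.52 and 7.48 in knockout placebo arrays and 9.17, 8.50 and 8.75 in wildtype placebo arrays, so that every knockout array lay under every wildtype array. The position of its probes relative to the deleted part is not known here. Of the epithelial markers that define a mammary gland, 7 of 27 luminal and 13 of 22 basal and myoepithelial genes lay above the median of their array in all 12 arrays, as did 17 of 18 white adipocyte and 25 of 29 fibroblast genes. T and B cell genes differed between arrays within every group. Their combined score, the mean of the list's log2 values centred over the 12 arrays, was -2.08, 1.42 and 0.31 in knockout estradiol arrays and -1.99, 0.64 and -2.08 in wildtype estradiol arrays, against 1.80, -1.91 and 1.85 in knockout placebo arrays and 2.17, 1.67 and -1.80 in wildtype placebo arrays. Wildtype placebo array 3 and knockout placebo array 2 thus lay with the lymphocyte-poor arrays and apart from the other placebo arrays. The skeletal muscle score was 2.13, -2.53 and -1.16 in knockout estradiol arrays and 1.27, -0.19 and 0.68 in wildtype estradiol arrays, against -2.87, 1.88 and -3.06 in knockout placebo arrays and 1.51, 3.48 and -1.14 in wildtype placebo arrays, without an order by treatment. The part of these 2 differences in tissue content in the results was not tested beyond the fits with each score as a covariate, given where they move a count.

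Estradiol was followed by many more rises than falls. In the limma fit 161 genes rose, which is 0.885% of those tested, and 19 fell, which is 0.104%. A change was taken as common to both genotypes where, besides, the 3 estradiol arrays of each genotype all lay on the same side of their 3 placebo arrays. Of the rises 144 were common by this rule (0.792% of the genes tested), and of the falls 17 (0.0934%). Without any test, 489 genes showed the same side in both genotypes (2.69% of the genes), 375 of them above and 114 below placebo. The genotype term of the same fit called 0 genes in either direction (0%). That term left even Ccnd1 uncalled, at -1.93 ± 0.29 for knockout minus wildtype (SE, adjusted p = 0.492). The 0 is therefore no measure of how much genotype changed.

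The rises were large as well as numerous. Their median difference was 1.20 (median SE 0.18), against 0.01 over all genes, and 100 of the 161 were at least 1 and 29 at least 2. The rises were chosen by a test on this difference, which favours a large median. The falls had a median difference of -0.74, and 3 of the 19, namely Ncan, Acaa1b and Cxcl9, reached a fall of 1. In 129 of the rises and 15 of the falls, the 6 estradiol and 6 placebo arrays did not overlap at all, whatever the genotype. These genes were called on the same arrays, which favours such separation, and its share over all genes was not counted. All 180 called genes had the same sign in both genotypes, which their choice on the mean of both favours. Their list holds 7 genes with only a clone name, which are counted and not named.

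**Figure D1:**
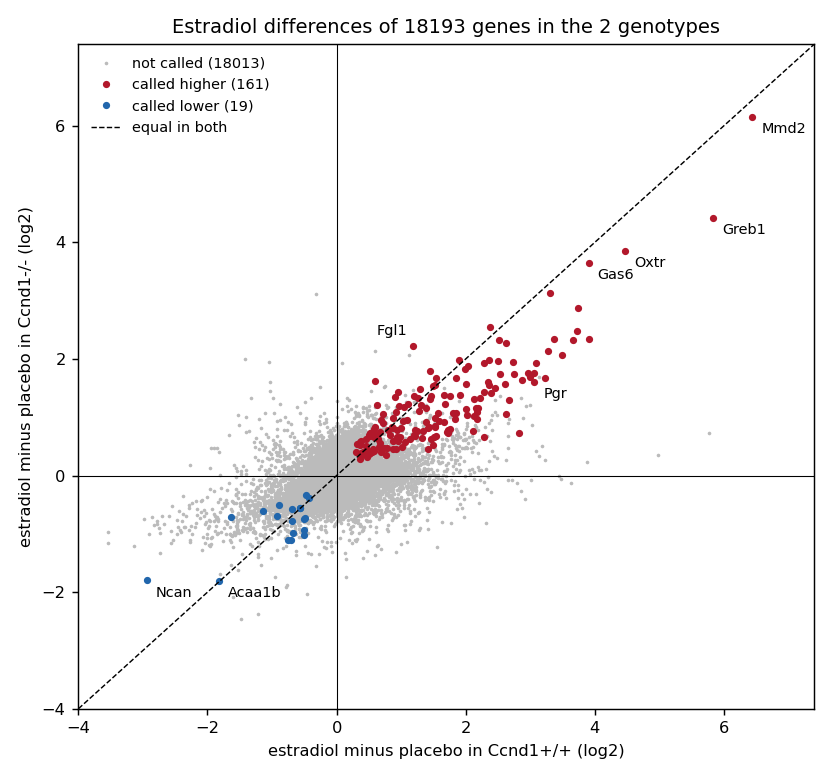
The difference between estradiol and placebo on the log2 scale in knockout arrays (vertical) against that in wildtype arrays (horizontal), each from 3 against 3 arrays, for 18193 genes. The 161 genes called higher (red) all lie above 0 in both genotypes and the 19 called lower (blue) below 0 in both, which their choice on the mean of both favours, and most red points lie under the dashed line of equal differences.

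The counts depended on single arrays, and each array that moved one by over 1.5 times is named here. Without wildtype placebo array 3, 537 genes were called higher and 133 lower. Without knockout placebo array 1 they were 84 and 5, without knockout placebo array 3 92 and 6, without wildtype placebo array 1 89 and 6, and without wildtype placebo array 2 74 and 3. Among the estradiol arrays, the counts were 99 and 8 without knockout array 1, 128 and 12 without knockout array 2, 109 and 9 without wildtype array 1, 86 and 7 without wildtype array 2, and 61 and 2 without wildtype array 3. The counts also changed in fits chosen with tissue content in view, and the cause of these shifts was not tested. The lymphocyte score as a covariate gave 192 higher and 68 lower, and the muscle score 123 and 12. With wildtype placebo array 3 and knockout placebo array 2 both left out, 2101 genes were called higher and 1601 lower, and with the luminal score as a covariate 33 and 0. In that last fit limma adjusted for a score that itself differed by treatment in wildtype, as given with the epithelial genes. With each array centred on its median, the calls were 126 higher and 33 lower, so that rises made up 79.2% of the calls, against 89.4% without centring; the centring moved all differences by 0.06.

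Among the classical targets of the estrogen receptor, Greb1, whose product is a coactivator of that receptor, rose most. It measured 8.76, 8.77 and 8.32 in knockout estradiol arrays and 10.05, 9.38 and 9.25 in wildtype estradiol arrays, against 4.14, 4.64 and 3.82 in knockout placebo arrays and 3.40, 3.82 and 3.98 in wildtype placebo arrays. The treatments were more than 3 units apart, and 5 of the 6 placebo arrays lay under the lower quartile of all probe sets of their array. The difference was 5.12 ± 0.28 (SE, adjusted p = 5.08e-06), or 4.41 in knockout. All 3 wildtype placebo arrays were under that quartile, so that the wildtype difference of 5.83 is given as at least 5.36, the distance to the quartile. With all 5 such values raised to their quartile the difference over both genotypes was 4.81, a 28.0-fold change. Other probe sets of Greb1 gave differences of 3.69, 0.98 and 0.26, all above 0.

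Pgr, the progesterone receptor gene, measured 5.87, 5.88 and 5.90 in knockout estradiol arrays and 7.97, 8.68 and 8.40 in wildtype estradiol arrays, against 3.64, 4.03 and 5.15 in knockout placebo arrays and 5.64, 5.18 and 5.04 in wildtype placebo arrays. All estradiol arrays lay above all placebo arrays, with the wildtype estradiol arrays highest and over 2 units above the knockout ones. The difference was 2.34 ± 0.32 (SE, adjusted p = 0.00681), or 1.61 in knockout and 3.06 in wildtype. In knockout 2 placebo arrays lay under the lower quartile of their array. With those values raised to that quartile the knockout difference was 1.33. The 2 other probe sets of Pgr, both dimmer, differed by 0.94 and 0.32, and the mean of all its probe sets by 1.20. The gap between the genotypes' responses, knockout minus wildtype, was -1.45 ± 0.48 (SE, unadjusted p = 0.0127, adjusted p = 0.58).

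The receptor genes themselves were not called. Esr1 averaged 10.42 ± 0.53 in knockout estradiol arrays and 10.36 ± 0.16 in wildtype estradiol arrays, against 10.92 ± 0.68 in knockout placebo arrays and 10.80 ± 0.59 in wildtype placebo arrays (SD, n = 3 each), with a difference of -0.47 ± 0.26 (SE, adjusted p = 0.409). The highest Esr1 values in the placebo group were those of knockout array 2 and wildtype array 3, the same arrays that were poor in lymphocyte genes. Esr2, encoding estrogen receptor beta, had a difference of -0.03 ± 0.10 (SE, adjusted p = 0.931). Ccnd1 differed by 0.53 ± 0.29 (SE, adjusted p = 0.405), with the genotypes apart at -0.15 in knockout and 1.22 in wildtype. Its estradiol and placebo arrays overlapped in knockout and did not in wildtype.

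A list of 35 measured genes known to respond to estrogen in breast, mammary gland or uterus held 3 rises and no fall. Its median difference was 0.05, against 0.01 over all genes. The other rise was Lcn2, the siderophore-binding lipocalin 2, which differed by 2.26 ± 0.44 (SE, adjusted p = 0.0375) but was not common, since 1 knockout placebo array reached 9.09 and the lowest knockout estradiol array was at 8.84. At an unadjusted p under 0.05, 9 of the 35 passed (25.7%), 8 of them above 0, against 15.8% of all genes. Lcn2 was called in 3 of 12 fits without 1 array, with an adjusted p of 0.111 without wildtype placebo array 2. Areg, encoding amphiregulin, has no probe set that the annotation gives to it alone, and is not analysed here. Of 9 steroid receptor genes only Pgr rose and none fell, and of 12 coactivators and corepressors of the receptor limma called 0, with 3 at an unadjusted p under 0.05. The cofactor with the smallest p was the methyltransferase gene Carm1, at 0.33 ± 0.09 (SE, adjusted p = 0.107).

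Promoter sequences are shown for the 2 largest rises and for a fall that holds a near match to the estrogen response element, so that the letters at the start of each gene can be read beside its values. They are the 250 bases before the transcription start in RefSeq on build GRCm38.p6, written 5′ to 3′ on the strand of the gene. The element searched was the palindrome GGTCANNNTGACC, which reads the same on both strands, with up to 1 mismatch in its 10 fixed bases. It was found before 119 of 14452 genes with an entry (0.823%), before 0 of 115 common rises and before 1 of 16 common falls, Exoc6. The 5 letters GGTCA that begin it, on either strand, stood before 38.7% of all genes, 40.9% of the common rises and 43.8% of the common falls. By the rule for named genes only the promoter of Exoc6 was due, as the 1 match among 39 genes with an entry. Those of Mmd2 and Greb1 were chosen after their values were seen. Capitals mark the near-palindrome in Exoc6, 133 to 121 bases before its start, and the same 5 letters on the other strand in Greb1, 88 to 84 bases before its start. The Mmd2 window holds these letters on neither strand. Greb1 has 2 starts in the table, of which the one shown was listed first.
Mmd2, chr5:142608753-142609002, minus strand: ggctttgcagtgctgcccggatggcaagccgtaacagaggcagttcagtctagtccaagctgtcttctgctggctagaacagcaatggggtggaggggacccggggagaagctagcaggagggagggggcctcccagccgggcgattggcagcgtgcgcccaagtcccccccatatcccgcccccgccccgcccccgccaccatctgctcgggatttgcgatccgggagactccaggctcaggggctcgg
Greb1, chr12:16800887-16801136, minus strand: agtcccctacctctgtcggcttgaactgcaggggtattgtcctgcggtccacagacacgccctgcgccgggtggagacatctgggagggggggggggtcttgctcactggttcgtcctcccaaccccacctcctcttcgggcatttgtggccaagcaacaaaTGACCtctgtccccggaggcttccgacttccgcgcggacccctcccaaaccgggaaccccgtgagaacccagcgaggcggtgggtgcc
Exoc6, chr19:37550168-37550417, plus strand: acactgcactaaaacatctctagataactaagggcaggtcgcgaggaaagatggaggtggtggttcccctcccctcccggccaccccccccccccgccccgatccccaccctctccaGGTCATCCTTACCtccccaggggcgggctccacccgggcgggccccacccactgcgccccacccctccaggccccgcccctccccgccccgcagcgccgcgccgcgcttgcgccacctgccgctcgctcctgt
A match is a description of letters, and a window without one says nothing of the receptor's binding elsewhere.

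Mmd2, a member of the progestin and adipoQ receptor family, had the largest difference of all genes. It measured 12.89, 12.75 and 12.89 in knockout estradiol arrays and 12.15, 12.51 and 12.65 in wildtype estradiol arrays, against 6.88, 6.47 and 6.73 in knockout placebo arrays and 5.96, 6.00 and 6.04 in wildtype placebo arrays. The 6 estradiol arrays stood far above the 6 placebo arrays, and under placebo the wildtype arrays lay below the knockout arrays. The difference was 6.29 ± 0.11 (SE, adjusted p = 5.27e-11), a 78.3-fold change, and 6.15 in knockout and 6.44 in wildtype. A second probe set of Mmd2 differed by 5.26 and a dimmer one by 0.34.

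Gas6, the vitamin K-dependent ligand of the receptor kinases Axl, Tyro3 and Mertk, measured 11.43, 12.01 and 11.92 in knockout estradiol arrays and 11.79, 11.91 and 12.12 in wildtype estradiol arrays, against 8.26, 8.25 and 7.89 in knockout placebo arrays and 7.65, 8.04 and 8.44 in wildtype placebo arrays. All 6 estradiol arrays lay above all 6 placebo arrays, and the genotypes were alike in range under each treatment. The difference was 3.78 ± 0.15 (SE, adjusted p = 3.91e-07), or 3.65 in knockout and 3.90 in wildtype. Of the 5 measured genes of this ligand and receptor group, Gas6 was the only one called, and all 5 were above 0 with a median of 0.58. The receptor gene with the smallest p, Mertk, differed by 0.58 ± 0.16 (SE, adjusted p = 0.124). The group's score was 0.43, 0.36 and 0.25 in knockout estradiol arrays and 1.04, 0.64 and 0.79 in wildtype estradiol arrays, against -0.58, -0.30 and -0.76 in knockout placebo arrays and -1.04, -0.59 and -0.24 in wildtype placebo arrays, so that estradiol arrays lay above placebo arrays in each genotype. Without Gas6 the score of the other 4 genes overlapped between treatments in knockout, where an estradiol array was at -0.17 and a placebo array at 0.06, and did not overlap in wildtype.

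Nexmif, an X-linked gene named for neurite extension and migration, measured 6.66, 6.75 and 6.30 in knockout estradiol arrays and 7.02, 6.10 and 6.70 in wildtype estradiol arrays, against 3.11, 3.60 and 3.61 in knockout placebo arrays and 3.31, 3.49 and 3.09 in wildtype placebo arrays. All 6 placebo arrays lay under the lower quartile of their array. Its difference of 3.22 ± 0.16 (SE, adjusted p = 3.2e-06) is therefore given as at least 2.37, the distance to that quartile. Its 3 other probe sets differed by 0.40 to 0.84.

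Several further rises among the 25 largest belong to none of the gene lists. Hpca, encoding the neuronal calcium sensor hippocalcin, differed by 2.17 ± 0.22 (SE, adjusted p = 0.000977), with 7.03 to 8.35 in the 6 estradiol arrays, against 4.94 to 5.62 in the 6 placebo arrays. Nxnl2, a nucleoredoxin-like gene, differed by 2.51 ± 0.32 (SE, adjusted p = 0.005), with 5.58 to 8.14 in the 6 estradiol arrays, against 4.39 to 4.84 in the 6 placebo arrays. Prtn3, encoding the serine protease proteinase 3, differed by 2.34 ± 0.32 (SE, adjusted p = 0.00687), with 7.66 to 9.57 in the 6 estradiol arrays, against 5.65 to 7.20 in the 6 placebo arrays. These 3 and the homeobox gene Prrx2 (2.36) separated the treatments without overlap in all 12 arrays. Mup10, of the major urinary protein family, differed by 2.85 ± 0.36 (SE, adjusted p = 0.00454), and since that family holds near-identical copies its probe set may measure several of them. Slfn4, a schlafen gene of myeloid cells, differed by 2.70 ± 0.46 (SE, adjusted p = 0.0203), and Ccn5, a matricellular protein gene, by 2.42 ± 0.41 (SE, adjusted p = 0.0203). Slfn4 and Ccn5 were called in 6 and 6 of the 12 fits that leave out 1 array, and their adjusted p reached 0.0584 without wildtype placebo array 1 and 0.0656 without wildtype placebo array 2.

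**Figure D2:**
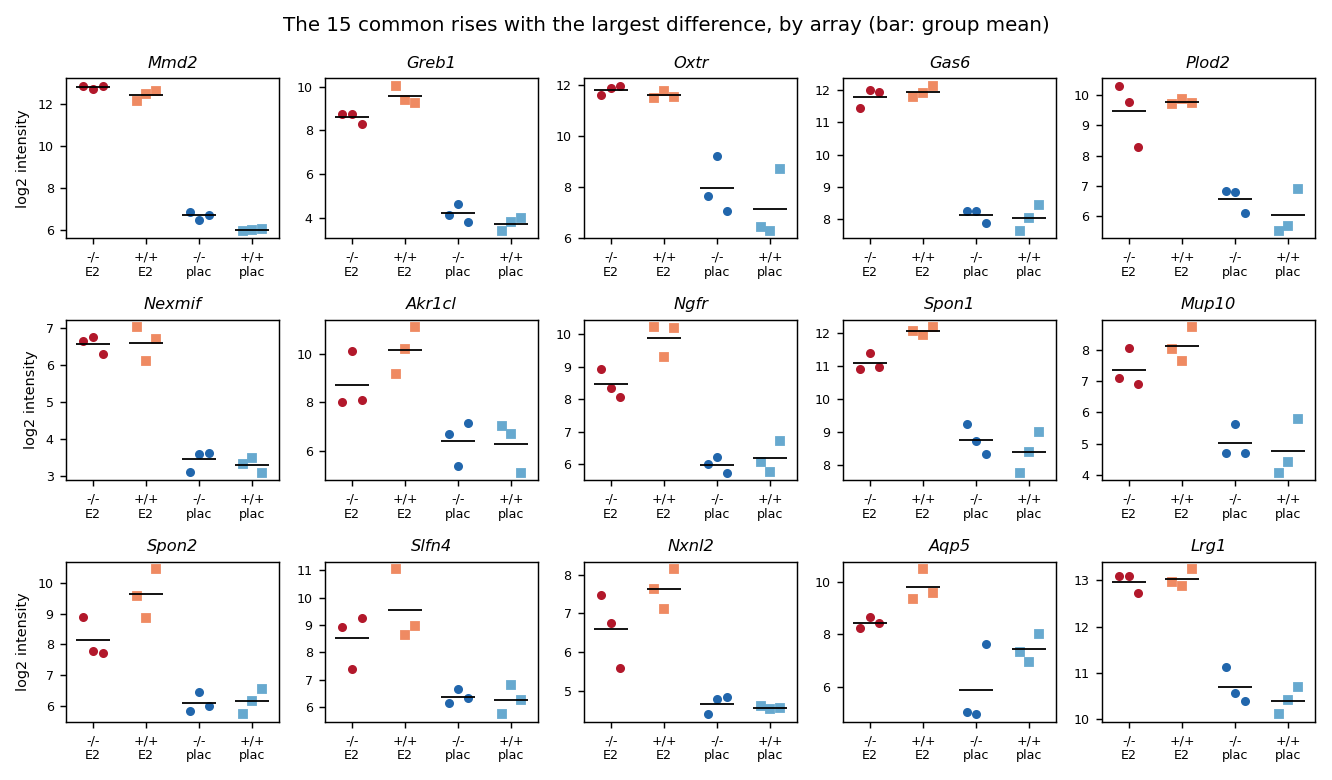
Log2 intensity of the 15 common rises with the largest difference, 1 panel a gene, with the 3 arrays of each group as points (left to right: knockout estradiol, wildtype estradiol, knockout placebo, wildtype placebo) and a bar at the group mean. Each vertical axis has its own range. In every panel the estradiol points of a genotype lie above the placebo points of that genotype. Wildtype placebo array 3 is the highest of its group in all panels but those of Nexmif, Akr1cl, Slfn4 and Nxnl2.

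Among the listed basal, myoepithelial and luminal genes, Oxtr, the oxytocin receptor that makes myoepithelial cells contract at milk ejection, rose most. It measured 11.61, 11.85 and 11.96 in knockout estradiol arrays and 11.48, 11.74 and 11.53 in wildtype estradiol arrays, against 7.62, 9.22 and 7.04 in knockout placebo arrays and 6.41, 6.27 and 8.68 in wildtype placebo arrays. The estradiol arrays were close together, within 0.5, while the placebo arrays spread over nearly 3 units, with knockout array 2 and wildtype array 3 highest. The difference was 4.16 ± 0.45 (SE, adjusted p = 0.00136), or 3.85 in knockout and 4.46 in wildtype. A second probe set differed by 1.99. Snai2, a transcription factor of basal cells, measured 9.62 to 10.65 in the 6 estradiol arrays, against 8.35 to 8.80 in the 6 placebo arrays, with a difference of 1.45 ± 0.16 (SE, adjusted p = 0.00136). Fst, encoding the activin-binding protein follistatin, differed by 1.78 ± 0.33 (SE, adjusted p = 0.0305). It was called in 4 of 12 fits without 1 array, and its adjusted p was 0.0862 without knockout placebo array 1.

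Oxtr, Snai2 and Fst were the 3 rises among 22 measured basal and myoepithelial genes, none of which fell. The median of this list was 0.64, but -0.10 in knockout and 1.36 in wildtype. Defining basal genes did not pass, with Krt5 at 0.45 ± 0.20 (SE, adjusted p = 0.302), Krt14 at 0.75 ± 0.39 (SE, adjusted p = 0.372) and Trp63 at 1.06 ± 0.38 (SE, adjusted p = 0.218). Of 27 luminal genes only Pgr rose and none fell, with a median of 0.64, or -0.07 in knockout and 1.29 in wildtype. Krt8 differed by 1.84 ± 0.80 (SE, adjusted p = 0.295), and its knockout and wildtype differences were 0.51 and 3.18. The luminal score was -0.63, -1.21 and -0.60 in knockout estradiol arrays and 0.78, 2.27 and 1.40 in wildtype estradiol arrays, against -1.21, -1.02 and -0.01 in knockout placebo arrays and 0.05, -0.17 and 0.34 in wildtype placebo arrays, so that the treatments did not overlap in wildtype and overlapped in knockout.

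Among genes of epithelial secretion and of prolactin signalling, Socs2, Stat5a and Aqp5 rose. Socs2, a cytokine-induced inhibitor of growth hormone and prolactin signalling, measured 10.32, 10.65 and 10.12 in knockout estradiol arrays and 10.45, 10.57 and 10.17 in wildtype estradiol arrays, against 9.25, 9.34 and 9.20 in knockout placebo arrays and 9.07, 8.99 and 9.28 in wildtype placebo arrays. All 6 estradiol arrays lay above all placebo arrays in a narrow band. The difference was 1.19 ± 0.11 (SE, adjusted p = 0.000424), or 1.10 in knockout and 1.28 in wildtype. Stat5a, encoding the transcription factor that prolactin activates, differed by 0.82 ± 0.14 (SE, adjusted p = 0.0237), and it was called in 6 of 12 fits without 1 array, with an adjusted p of 0.0714 without knockout placebo array 1. These were the 2 rises among 9 measured genes of prolactin signalling, whose median was 0.05. Over all genes tested 0.885% rose. Aqp5, a water channel gene of secretory epithelium, differed by 2.46 ± 0.43 (SE, adjusted p = 0.0226) as the 1 rise among 16 transport and secretory genes. Its call was lost in 7 of 12 fits without 1 array, with an adjusted p of 0.072 without wildtype placebo array 2. Of 19 milk protein and milk fat genes limma called 0, with 2 at an unadjusted p under 0.05 and a median of 0.06. Of 23 genes of epithelial junctions it called 0, with 4 at that level, and their median was -0.12 in knockout and 0.55 in wildtype.

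Among the genes of stroma and matrix, the largest rise described was that of Plod2. This lysyl hydroxylase gene, whose product prepares collagen for crosslinking, measured 10.31, 9.77 and 8.30 in knockout estradiol arrays and 9.69, 9.89 and 9.73 in wildtype estradiol arrays, against 6.84, 6.81 and 6.09 in knockout placebo arrays and 5.51, 5.69 and 6.89 in wildtype placebo arrays. Knockout estradiol array 3 was the lowest estradiol array, and still above every placebo array. The difference was 3.31 ± 0.36 (SE, adjusted p = 0.00136), or 2.88 in knockout and 3.74 in wildtype. P4ha3, a prolyl hydroxylase subunit for collagen, differed by 1.57 ± 0.21 (SE, adjusted p = 0.00681), and since all placebo arrays lay under the lower quartile of their array the rise was at least 1.02. These were 2 rises among 16 genes of collagen crosslinking, with a median of 0.36, or 0.19 in knockout and 0.69 in wildtype.

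Spon1, encoding the matrix protein F-spondin, measured 10.92, 11.39 and 10.96 in knockout estradiol arrays and 12.05, 11.95 and 12.17 in wildtype estradiol arrays, against 9.24, 8.72 and 8.34 in knockout placebo arrays and 7.77, 8.39 and 9.01 in wildtype placebo arrays. The wildtype estradiol arrays were highest, the knockout estradiol arrays lay between them and placebo, and the treatments did not overlap. The difference was 2.99 ± 0.29 (SE, adjusted p = 0.00069), or 2.32 in knockout and 3.67 in wildtype. Spon2, a related matrix gene, differed by 2.78 ± 0.36 (SE, adjusted p = 0.005), and Cdh11, a cadherin of mesenchymal cells, by 2.24 ± 0.36 (SE, adjusted p = 0.0153). Cdh11 lost its call in 2 of 12 fits, with an adjusted p of 0.0535 without wildtype estradiol array 3.

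Pdgfra, the platelet-derived growth factor receptor of fibroblasts, differed by 1.23 ± 0.21 (SE, adjusted p = 0.0197) and was the 1 rise among 29 fibroblast and fibrillar matrix genes. The median of that list was 0.43, or -0.23 in knockout and 1.03 in wildtype. Col27a1, a collagen gene outside that list, rose by 0.45 ± 0.09 (SE, adjusted p = 0.0475). Sdc1, the cell surface proteoglycan syndecan 1, differed by 1.85 ± 0.30 (SE, adjusted p = 0.0175) as the 1 rise among 9 proteoglycan genes. Timp1, an inhibitor of matrix metalloproteinases, differed by 1.98 ± 0.38 (SE, adjusted p = 0.0375) as the 1 rise among 24 protease and inhibitor genes, and it was not common, since 1 knockout estradiol array at 6.02 lay under a knockout placebo array at 6.08. Pdgfra, Sdc1 and Timp1 were called in 8, 10 and 3 of 12 fits without 1 array. The adjusted p of Pdgfra reached 0.0656 without wildtype placebo array 2. When the third wildtype estradiol array was left out, that of Sdc1 was 0.0553 and that of Timp1 0.108. Of the 26 listed basement membrane and integrin genes limma called 0, with 7 at an unadjusted p under 0.05. Itga2b, an integrin gene outside that list, rose by 0.80 ± 0.15 (SE, adjusted p = 0.0305). Lama1, a laminin chain gene and the one with the smallest p, differed by 1.38 ± 0.35 (SE, adjusted p = 0.101).

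Of the growth factor and developmental pathways, Wnt signalling and neurotrophin reception held calls. Rspo1, encoding R-spondin 1, which strengthens Wnt signals and is made by luminal cells, measured 5.35 to 7.55 in the 6 estradiol arrays, against 4.62 to 5.18 in the 6 placebo arrays. No estradiol array overlapped with placebo, and the difference was 1.98 ± 0.29 (SE, adjusted p = 0.00965). Axin2, a feedback inhibitor and target of Wnt signalling, differed by 0.81 ± 0.16 (SE, adjusted p = 0.0375). These were the 2 rises among 32 Wnt genes, whose median was 0.11. Axin2 was called in 4 of 12 fits without 1 array, with an adjusted p of 0.106 without wildtype estradiol array 3.

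Ngfr, the p75 neurotrophin receptor found on nerve sheath and basal cells, measured 8.94, 8.36 and 8.08 in knockout estradiol arrays and 10.21, 9.30 and 10.19 in wildtype estradiol arrays, against 5.99, 6.21 and 5.73 in knockout placebo arrays and 6.07, 5.76 and 6.72 in wildtype placebo arrays. Wildtype estradiol arrays lay highest, knockout estradiol arrays next and all placebo arrays lower, without overlap. The difference was 3.10 ± 0.29 (SE, adjusted p = 0.000485), or 2.48 in knockout and 3.72 in wildtype. With Ncam1, a neural cell adhesion molecule gene (1.29 ± 0.19 (SE, adjusted p = 0.0103)), it made up the 2 rises among 12 genes of neurotrophins and Schwann cells, whose median was 0.30.

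In the families of EGF, IGF, FGF and Notch genes limma called 0 of 15, 14, 16 and 15 measured members. At an unadjusted p under 0.05 these held 3, 5, 4 and 2 genes. The receptor gene Egfr differed by 1.23 ± 0.29 (SE, adjusted p = 0.0816), the binding protein gene Igfbp3 by -1.39 ± 0.30 (SE, adjusted p = 0.0616) and the Notch target Hey1 by 0.51 ± 0.18 (SE, adjusted p = 0.225). Fgf2, the FGF gene with the smallest p, was under the lower quartile of the array in all 6 placebo and 5 of 6 estradiol arrays, so that no difference is given for it. Igf1, a local mediator of estrogen action in the gland, differed by -1.31 ± 0.34 (SE, adjusted p = 0.102), with its estradiol arrays below its placebo arrays in each genotype. Of the 26 listed TGF-beta and BMP genes Fst alone rose. Bmp8a, which is outside that list, rose by 0.95 ± 0.16 (SE, adjusted p = 0.0197).

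Among immediate early genes, which respond within minutes to growth factors, Egr2 and Jun rose, as 2 of 20 with a median of 0.09. Egr2, a zinc finger transcription factor, measured 9.20 to 10.76 in the 6 estradiol arrays, against 6.42 to 8.42 in the 6 placebo arrays, with a difference of 2.41 ± 0.38 (SE, adjusted p = 0.0152). Jun, a subunit of AP-1, differed by 0.66 ± 0.12 (SE, adjusted p = 0.0275). Egr2 lost its call in 1 and Jun in 7 of 12 fits, with adjusted p-values of 0.053 without wildtype estradiol array 3 and 0.0813 without wildtype estradiol array 3.

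Of the lists of cell division genes, only that of the D-type cyclins held a call. Among 21 genes of D-type cyclins, their kinases and inhibitors, the 1 rise was that of Cdkn2b, encoding the kinase inhibitor p15, at 0.48 ± 0.08 (SE, adjusted p = 0.015). It lost its call in 1 of 12 fits, at 0.0538 without wildtype estradiol array 3. None of 23 replication genes and 27 mitosis genes was called by limma, and 0 of each had an unadjusted p under 0.05. Most members lay below 0 all the same, 20 of the 23 replication genes and 21 of the 27 mitosis genes. The replication list had a median of -0.15, or -0.38 in knockout and 0.04 in wildtype. The mitosis list had a median of -0.13, or -0.67 in knockout and 0.35 in wildtype. Its score was -0.86, 0.32 and -0.30 in knockout estradiol arrays and -0.10, 0.46 and 0.01 in wildtype estradiol arrays, against 0.87, -0.85 and 1.10 in knockout placebo arrays and 0.44, 0.15 and -1.24 in wildtype placebo arrays, and within each group it was lowest in an array poor in lymphocyte genes. The replication and mitosis genes with the smallest p were Fen1, a nuclease of lagging strand synthesis, at -0.28 ± 0.23 (SE, adjusted p = 0.579), and the spindle motor gene Kif11 at -0.19 ± 0.10 (SE, adjusted p = 0.397).

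**Figure D3:**
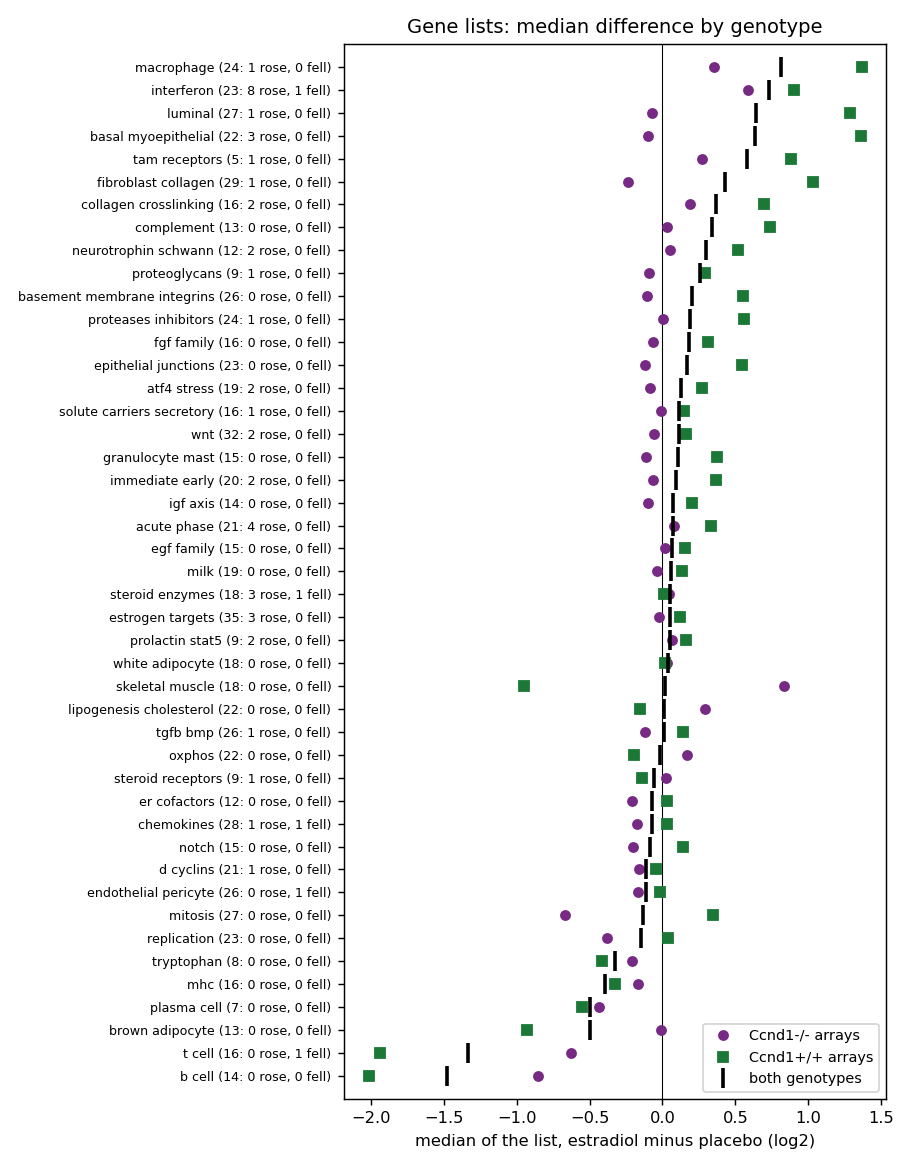
Median difference between estradiol and placebo (log2, horizontal) of each of 45 gene lists, in the knockout arrays (circles), the wildtype arrays (squares) and the fit of both (bars), ordered by the last. The numbers beside each name are its measured members and how many rose and fell. The interferon list has the most rises (8 of 23), and the luminal, basal and fibroblast medians lie near or below 0 in knockout and above 1 in wildtype.

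Enzymes of steroid metabolism changed in both directions. Hsd11b2, which inactivates corticosterone and so shields the mineralocorticoid receptor, measured 9.02, 8.25 and 7.78 in knockout estradiol arrays and 8.46, 8.25 and 9.06 in wildtype estradiol arrays, against 6.16, 6.85 and 6.15 in knockout placebo arrays and 6.27, 5.57 and 6.42 in wildtype placebo arrays. Every estradiol array lay above every placebo array. The difference was 2.23 ± 0.26 (SE, adjusted p = 0.00199), or 1.96 in knockout and 2.50 in wildtype. Akr1cl, an aldo-keto reductase gene, differed by 3.13 ± 0.56 (SE, adjusted p = 0.0274), and Akr1c14, which reduces 3-ketosteroids, by 2.14 ± 0.36 (SE, adjusted p = 0.0191). The calls of Akr1cl and Akr1c14 held in 6 and 8 of 12 fits without 1 array, with adjusted p-values of 0.0754 without wildtype placebo array 2 and 0.0602 without wildtype placebo array 2.

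Cyp1b1, a cytochrome P450 that hydroxylates estradiol, fell by 0.83 ± 0.15 (SE, adjusted p = 0.0277). It measured 8.05, 8.02 and 8.18 in knockout estradiol arrays and 8.29, 8.50 and 7.88 in wildtype estradiol arrays, against 9.20, 8.98 and 9.03 in knockout placebo arrays and 8.92, 9.30 and 8.46 in wildtype placebo arrays. In wildtype 1 estradiol array at 8.50 overlapped with 1 placebo array at 8.46, so that the fall was not common. It was called in 4 of 12 fits, with an adjusted p of 0.079 without wildtype estradiol array 3. The list of 18 measured steroid enzymes thus held 3 rises and 1 fall, with a median of 0.05. Its score was 0.20, 0.18 and 0.17 in knockout estradiol arrays and 0.35, 0.18 and 0.37 in wildtype estradiol arrays, against -0.25, -0.03 and -0.25 in knockout placebo arrays and -0.37, -0.39 and -0.16 in wildtype placebo arrays, without overlap between the treatments. The score of the 14 members that were not called overlapped in both genotypes, with a median difference of 0.02.

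Secreted proteins of the acute phase response held 4 rises among 21 genes and no fall, with a median of 0.07. Over all genes 0.885% rose and 0.104% fell. At an unadjusted p under 0.05, 10 of the 21 passed (47.6%), against 15.8% of all genes. Of these 7 lay above 0 and 3 below, S100a8 at -1.57 among the latter. Lrg1, encoding a leucine-rich glycoprotein of serum, measured 13.09, 13.09 and 12.72 in knockout estradiol arrays and 12.95, 12.87 and 13.24 in wildtype estradiol arrays, against 11.12, 10.56 and 10.39 in knockout placebo arrays and 10.10, 10.41 and 10.68 in wildtype placebo arrays. Both estradiol groups lay more than 1.5 units above every placebo array. The difference was 2.45 ± 0.16 (SE, adjusted p = 1.72e-05), or 2.28 in knockout and 2.62 in wildtype. Fgl1, a fibrinogen-like protein of liver, measured 8.60, 8.26 and 8.56 in knockout estradiol arrays and 7.31, 7.02 and 7.62 in wildtype estradiol arrays, against 6.15, 6.59 and 6.03 in knockout placebo arrays and 6.12, 6.10 and 6.17 in wildtype placebo arrays. Here the knockout estradiol arrays were highest, above all wildtype estradiol arrays, with a difference of 1.70 ± 0.20 (SE, adjusted p = 0.00232), or 2.22 in knockout and 1.18 in wildtype. Hp, encoding haptoglobin, differed by 1.29 ± 0.19 (SE, adjusted p = 0.011), and Lcn2 was the fourth. Of 13 complement genes limma called 0, with 5 at an unadjusted p under 0.05, and C3ar1, the receptor of the C3a fragment, differed by 2.09 ± 0.50 (SE, adjusted p = 0.0824).

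Interferon-stimulated genes formed the list with the most rises. Of 23 measured, 8 rose and 1 fell, against the 0.885% and 0.104% of all genes, and 13 lay above placebo without overlap in both genotypes, against 375 of all 18193 genes. The median of the list was 0.73, or 0.59 in knockout and 0.90 in wildtype. Irf7, a transcription factor of the interferon response, measured 11.24, 10.01 and 10.05 in knockout estradiol arrays and 11.22, 10.28 and 10.09 in wildtype estradiol arrays, against 8.40, 8.58 and 8.69 in knockout placebo arrays and 7.91, 8.67 and 8.92 in wildtype placebo arrays. The estradiol arrays did not overlap with placebo, and knockout and wildtype were alike in range. The difference was 1.96 ± 0.27 (SE, adjusted p = 0.00687), or 1.88 in knockout and 2.03 in wildtype.

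Oas1a, an antiviral oligoadenylate synthetase gene with close copies nearby, differed by 1.98 ± 0.29 (SE, adjusted p = 0.0096), and Rtp4, a receptor transporter induced by interferon, by 1.41 ± 0.19 (SE, adjusted p = 0.00681). Oasl2 and Oas2, of the same synthetase family, differed by 2.45 ± 0.50 (SE, adjusted p = 0.0467) and 1.18 ± 0.18 (SE, adjusted p = 0.0132). Bst2, the virus-tethering protein tetherin, differed by 1.17 ± 0.24 (SE, adjusted p = 0.0454). The 2 other rises were those of Ifit3 (1.90) and Xaf1 (0.81). Irf7, Oas1a and Rtp4 were called in all 12 fits without 1 array, while Oasl2 and Bst2 were called in 3 and 2, with adjusted p-values up to 0.126 without wildtype placebo array 2 and 0.125 without wildtype placebo array 2. Oas2 lost its call in 1, at 0.0503 without wildtype estradiol array 3.

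The score of the interferon list was 0.68, 0.05 and 0.14 in knockout estradiol arrays and 0.96, 0.32 and 0.28 in wildtype estradiol arrays, against -0.43, -0.50 and -0.37 in knockout placebo arrays and -0.51, -0.27 and -0.34 in wildtype placebo arrays. All 6 estradiol arrays lay above all 6 placebo arrays, with array 1 of each genotype highest. The score of the 14 members that were not called, whose median difference was 0.45, also lay higher under estradiol without overlap in each genotype. Those 2 arrays were poor in lymphocyte genes, and wildtype array 1 was also the highest in the macrophage score. Cxcl9, a chemokine induced by interferon gamma that attracts T cells, was the member that fell, by 1.17 ± 0.22 (SE, adjusted p = 0.0341). It measured 9.61, 10.05 and 8.97 in knockout estradiol arrays and 8.53, 8.84 and 8.37 in wildtype estradiol arrays, against 10.35, 9.95 and 10.45 in knockout placebo arrays and 10.38, 10.06 and 10.22 in wildtype placebo arrays. The knockout estradiol array 2 overlapped with placebo, so that the fall was not common. Cxcl9 was called in 3 of 12 fits without 1 array, with an adjusted p of 0.0952 without wildtype placebo array 2.

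Markers of immune cells were recorded beside these genes. Fcgr1, the high affinity Fc receptor of macrophages, differed by 2.34 ± 0.41 (SE, adjusted p = 0.0229), and Ccr1, a chemokine receptor of myeloid cells, by 1.40 ± 0.29 (SE, adjusted p = 0.049). Fcgr1 was the 1 rise among 24 macrophage genes, none of which fell. The median of that list was 0.82, or 0.36 in knockout and 1.37 in wildtype, and 14 of the 24 (58.3%) had an unadjusted p under 0.05, all above 0, against 15.8% of all genes. The macrophage score was 0.04, 0.12 and -0.25 in knockout estradiol arrays and 1.54, 0.25 and 0.41 in wildtype estradiol arrays, against -0.29, -0.33 and -0.15 in knockout placebo arrays and -0.36, -0.31 and -0.66 in wildtype placebo arrays, with wildtype estradiol array 1 far above the rest. Fcgr1 and Ccr1 were called in 6 and 3 of 12 fits without 1 array, with adjusted p-values of 0.072 without wildtype placebo array 2 and 0.131 without wildtype estradiol array 3.

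Of 16 T cell genes 1 fell and none rose, and of 14 B cell genes limma called 0, with 0 at an unadjusted p under 0.05. The medians were -1.34 and -1.48, with all measured members below 0. The fall was that of Tbx21, the T-bet transcription factor of type 1 helper T cells and natural killer cells. It measured 5.65, 5.99 and 5.17 in knockout estradiol arrays and 4.63, 5.08 and 4.97 in wildtype estradiol arrays, against 6.34, 6.03 and 6.26 in knockout placebo arrays and 6.04, 6.29 and 5.78 in wildtype placebo arrays. No estradiol array reached the placebo arrays of its genotype, and the difference was -0.87 ± 0.17 (SE, adjusted p = 0.0369). It was called in 3 of 12 fits, with an adjusted p of 0.101 without wildtype placebo array 1. Cd79a, a B cell receptor component, differed by -1.68 ± 0.98 (SE, adjusted p = 0.43), with 4.59 to 8.45 in the 6 estradiol arrays, against 5.60 to 9.54 in the 6 placebo arrays, so that each treatment held both high and low arrays.

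**Figure D4:**
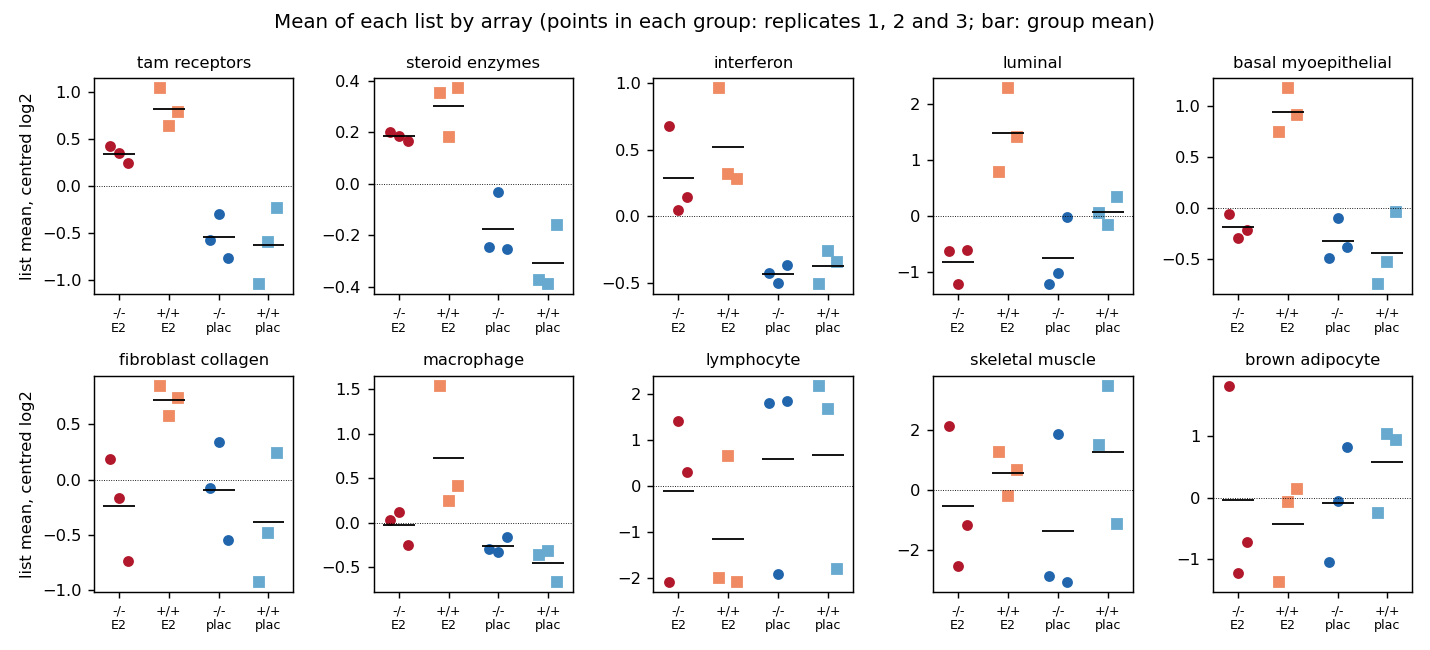
Mean centred log2 value (vertical) of 10 gene lists in each array, with the 3 arrays of each group as points in the order of their replicate numbers (left to right: knockout estradiol, wildtype estradiol, knockout placebo, wildtype placebo) and a bar at the group mean. Estradiol points lie above placebo points in both genotypes for the TAM receptor, steroid enzyme and interferon lists. Without their called members the TAM list overlaps in knockout and the steroid enzyme list in both genotypes, as given in the text, while the interferon list does not overlap. Lymphocyte and skeletal muscle scores split within the groups, with wildtype placebo array 3 and knockout placebo array 2 at -1.80 and -1.91 on the lymphocyte axis.

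Stress response genes held 2 rises among 19, with a median of 0.13. Trib3, a pseudokinase gene induced through the factor ATF4, measured 9.13 to 9.76 in the 6 estradiol arrays, against 7.46 to 8.64 in the 6 placebo arrays, with a difference of 1.38 ± 0.19 (SE, adjusted p = 0.00727) and 1.31 in knockout and 1.44 in wildtype. Hspa1b, of the inducible heat shock protein 70 pair whose other copy is near-identical, differed by 1.43 ± 0.28 (SE, adjusted p = 0.0375). Hspa1b was called in 4 of 12 fits, with an adjusted p of 0.107 without wildtype placebo array 2.

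Falls common to both genotypes were led by Ncan and Acaa1b. Ncan, the chondroitin sulfate proteoglycan neurocan, measured 6.74, 5.49 and 6.62 in knockout estradiol arrays and 4.96, 5.58 and 5.85 in wildtype estradiol arrays, against 7.98, 8.77 and 7.50 in knockout placebo arrays and 7.70, 7.35 and 10.17 in wildtype placebo arrays. The estradiol arrays all lay below the placebo arrays, of which wildtype array 3 and knockout array 2 were highest. Ncan fell by 2.37 ± 0.49 (SE, adjusted p = 0.0497), and its call was kept in 1 of 12 fits without 1 array, with an adjusted p of 0.119 without wildtype estradiol array 3.

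Acaa1b, a peroxisomal thiolase of fatty acid oxidation, measured 10.56, 10.62 and 10.37 in knockout estradiol arrays and 10.10, 10.48 and 10.38 in wildtype estradiol arrays, against 11.78, 13.27 and 11.93 in knockout placebo arrays and 11.80, 11.62 and 13.00 in wildtype placebo arrays. The estradiol arrays lay within 0.6 of each other and below every placebo array, and the same placebo arrays, knockout 2 and wildtype 3, stood more than 1 unit above the rest. Acaa1b fell by 1.82 ± 0.28 (SE, adjusted p = 0.0135), with differences of -1.81 in knockout and -1.82 in wildtype. Of the 19 falls it was the only one called in all 12 fits without 1 array, where its adjusted p reached 0.0455 without wildtype estradiol array 3.

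Dact1, encoding a Dishevelled-binding regulator of Wnt signalling, measured 6.77, 7.16 and 7.15 in knockout estradiol arrays and 7.90, 7.25 and 7.24 in wildtype estradiol arrays, against 8.10, 8.14 and 8.13 in knockout placebo arrays and 7.98, 8.15 and 8.52 in wildtype placebo arrays. All placebo arrays lay above all estradiol arrays, wildtype array 3 highest. Dact1 fell by 0.93 ± 0.15 (SE, adjusted p = 0.0149), and it lost its call in 1 of 12 fits, at 0.053 without wildtype estradiol array 3. Vtn, encoding the adhesive protein vitronectin, fell by 0.90 ± 0.19 (SE, adjusted p = 0.049). Rgs5, a marker of pericytes, fell by 0.70 ± 0.13 (SE, adjusted p = 0.0306) and was the 1 fall among 26 genes of endothelium and pericytes, whose median was -0.11. Bcl6b, a transcriptional repressor known in endothelium and T cells, fell by 0.60 ± 0.12 (SE, adjusted p = 0.0475). Vtn, Rgs5 and Bcl6b were called in 4, 3 and 2 of 12 fits, with adjusted p-values of 0.134 without wildtype estradiol array 3, 0.0915 without wildtype placebo array 2 and 0.114 without knockout estradiol array 1.

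The other common falls were of metabolic and signalling genes, all under 1 unit. Dgkh, a diacylglycerol kinase, fell by 0.81, and Ppm1k, the phosphatase that activates branched-chain amino acid breakdown, fell by 0.63. Rapgef5, an exchange factor for Rap proteins, fell by 0.63, Dennd5b, an exchange factor for Rab proteins, fell by 0.72, and Slc12a7, a potassium chloride cotransporter, fell by 0.40. Cobll1 fell by 0.76, N4bp2l1 fell by 0.74 and Fam53b fell by 0.56. Their adjusted p-values lay between 0.0197 for Ppm1k and 0.0453 for Fam53b, and each lost its call in 3 or more of the 12 fits without 1 array. An opposite sign was seen in 1 of the 2 other probe sets of Dgkh, at 0.04.

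Exoc6, a subunit of the exocyst that tethers secretory vesicles, measured 8.71, 8.81 and 8.59 in knockout estradiol arrays and 8.56, 8.64 and 8.68 in wildtype estradiol arrays, against 9.09, 9.09 and 9.08 in knockout placebo arrays and 8.93, 9.11 and 9.15 in wildtype placebo arrays. Every placebo array lay above every estradiol array by a small margin. Exoc6 fell by 0.41 ± 0.07 (SE, adjusted p = 0.0165), with differences of -0.38 in knockout and -0.44 in wildtype, and 1 of its 3 other probe sets was at 0.01. Cdk16, a cyclin-dependent kinase of the PCTAIRE group, fell by 0.57 ± 0.11 (SE, adjusted p = 0.0457) by its brightest probe set. Its 4 other probe sets all had the opposite sign (0.04 to 0.32), and their mean with it gave 0.0017, so that no direction is given for the gene.

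**Figure D5:**
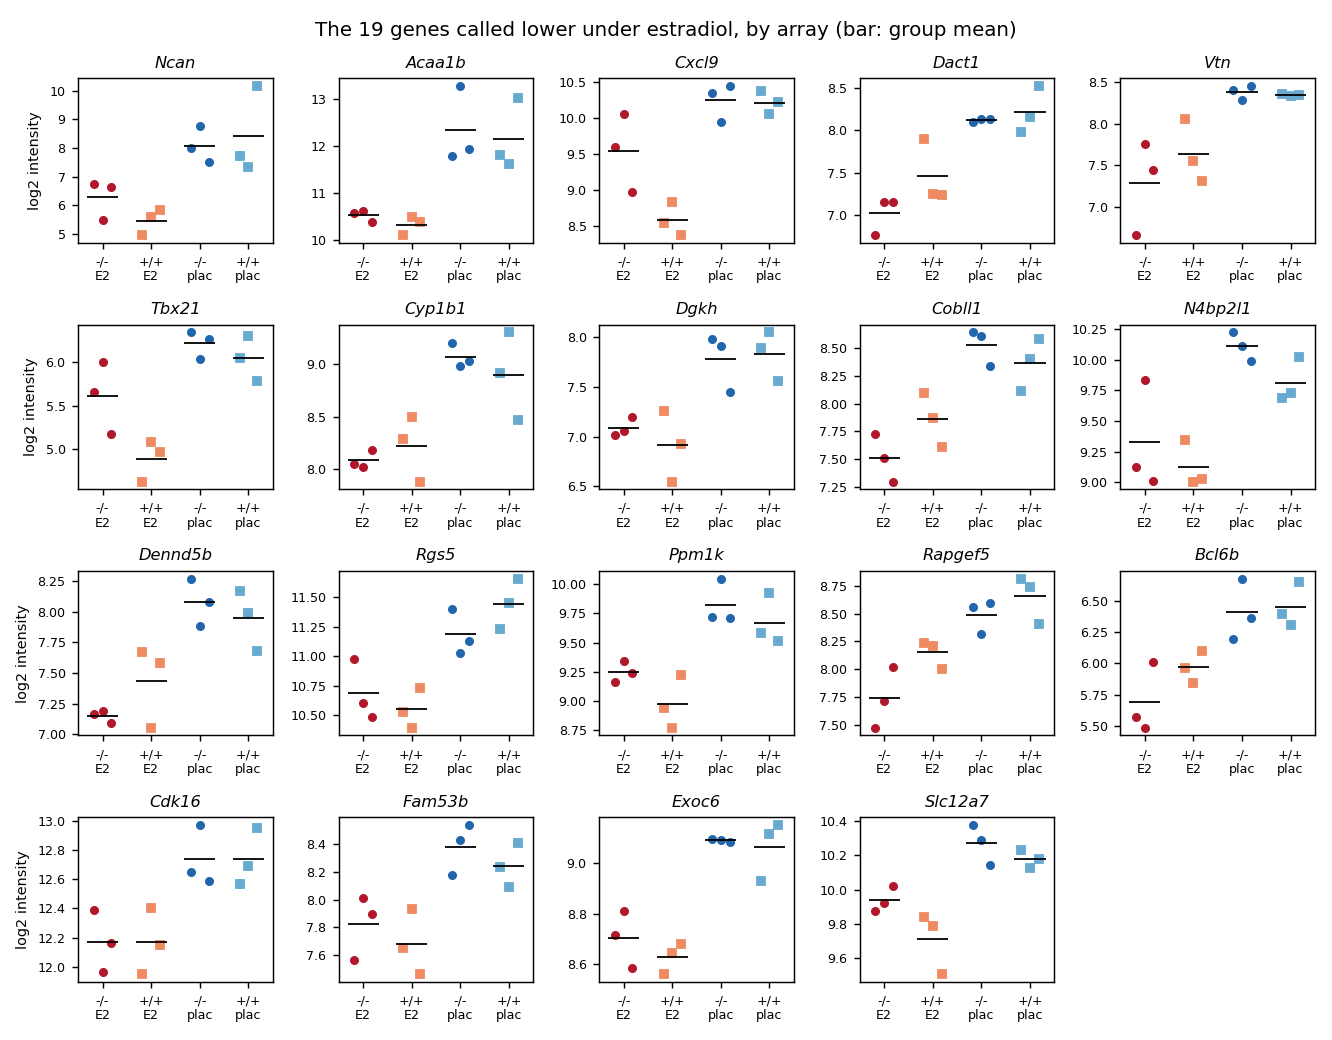
Log2 intensity of the 19 genes called lower under estradiol, 1 panel a gene in order of their difference, with the 3 arrays of each group as points (left to right: knockout estradiol, wildtype estradiol, knockout placebo, wildtype placebo) and a bar at the group mean. Each vertical axis has its own range. The treatments overlap within a genotype in Cxcl9 (knockout) and Cyp1b1 (wildtype), and wildtype placebo array 3 is the highest array in Ncan.

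The size of the shared response was compared between the genotypes gene by gene. The response in wildtype was the larger in 122 of the 161 rises and in 11 of the 19 falls. The share over all genes with the larger response in wildtype was not counted. The median difference of the rises was 0.98 in knockout and 1.42 in wildtype, and that of the falls -0.72 in knockout and -0.69 in wildtype. In the test of the difference itself, the knockout response minus the wildtype response in a limma fit of 4 group means, 0 of the 180 called genes had an adjusted p under 0.05, and 32 had an unadjusted one, against 1170 of all 18193 genes. Over all genes 2 had an adjusted interaction p under 0.05. Taken 1 genotype at a time in the same fit, limma called 18 of the 18193 genes in knockout and 342 in wildtype, 16 of them in both. Such counts at a threshold are no measure of the size of a response. Of the 180 genes called over both genotypes 72 were called in neither alone.

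The 8 called genes with the smallest interaction p are given as a description of where the genotypes were farthest apart. Frem1, a matrix gene of epithelial adhesion, differed by 0.74 in knockout and 2.82 in wildtype, with an interaction of -2.08 ± 0.40 (SE, unadjusted p = 0.000387, adjusted p = 0.194). Cpt1c, a brain-type carnitine palmitoyltransferase gene, differed by 0.45 in knockout and 1.42 in wildtype, Tcf24, a basic helix-loop-helix gene, by 0.66 in knockout and 2.29 in wildtype, and Has2, a hyaluronan synthase gene, by 0.52 in knockout and 1.50 in wildtype. Sdc1 differed by 1.06 in knockout and 2.63 in wildtype and Greb1 by 4.41 in knockout and 5.83 in wildtype. For Frem1, Tcf24 and Greb1 all 3 wildtype placebo arrays lay under the lower quartile of their array, so that their wildtype differences are at least 2.32, 1.92 and 5.36. In knockout 2 placebo arrays of each did so. With every value under that quartile raised to it, the knockout differences of Frem1, Tcf24 and Greb1 were 0.40, 0.42 and 4.25. These 6 genes had the larger difference in wildtype, and the other two in knockout. Fgl1 had an interaction of 1.04 ± 0.26 (SE, unadjusted p = 0.00243, adjusted p = 0.34), and Gadd45gip1, a mitochondrial ribosome gene, one of 1.03 ± 0.27 (SE, unadjusted p = 0.00351, adjusted p = 0.397). The only other probe set of Gadd45gip1 had the opposite sign for estradiol, at -0.05 against 1.10. Of the 46 called named genes with another probe set, 4 had one of opposite sign, namely Gadd45gip1, Dgkh, Exoc6 and Cdk16, and over all 180 called genes 9 had one. Frem1, Tcf24, Has2, Cpt1c and Gadd45gip1 were called over both genotypes in 4, 4, 4, 5 and 3 of the 12 fits without 1 array, with adjusted p-values up to 0.126 without wildtype placebo array 2. The adjusted interaction p of the 8 lay between 0.194 and 0.405. Without wildtype placebo array 3 limma called the interaction in 1 of the named genes, Lama1, at -2.35 ± 0.28 (SE, adjusted p = 0.0326).

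Lists outside these groups held no call. In all, 24 of the 45 lists had a called member, and the 796 different genes measured in them held 40 rises and 4 falls. In the 21 other lists limma called 0 of 356 genes, 44 of which had an unadjusted p under 0.05, against 2879 of all genes (15.8%). White adipocyte genes had a median of 0.03, fatty acid and cholesterol synthesis genes 0.01 and respiratory chain genes -0.02, all near the 0.01 of all genes. Brown adipocyte genes had a median of -0.49, or -0.01 in knockout and -0.93 in wildtype, and skeletal muscle genes 0.02, or 0.83 in knockout and -0.95 in wildtype. Like the muscle genes, brown adipocyte genes differed widely between arrays of a group. Ucp1 spanned 6.14 to 13.13 in the 6 estradiol arrays and 9.06 to 12.72 in the 6 placebo arrays. The part of brown fat content in these medians was not tested. Ido1, which degrades tryptophan, differed by 3.25 ± 0.87 (SE, adjusted p = 0.115), with 0.73 in knockout and 5.77 in wildtype, and was not called over both genotypes. The histocompatibility gene H2-Q10 differed by -0.89 ± 0.33 (SE, adjusted p = 0.232) and the granulocyte gene S100a8 by -1.57 ± 0.55 (SE, adjusted p = 0.212). Most of the 15 measured granulocyte and mast cell genes went the other way from S100a8, with 11 above 0, 4 below and a median of 0.10.

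For other genes with the smallest p of their list, limma gave no call. Mlxipl, a regulator of lipid synthesis, differed by 1.14 ± 0.31 (SE, adjusted p = 0.123), and Nnat, the imprinted gene neuronatin, by 1.55 ± 0.40 (SE, adjusted p = 0.101). Fabp3, the heart-type fatty acid binding protein, differed by -1.11 ± 0.59 (SE, adjusted p = 0.389), Ryr1, the muscle calcium release channel, by -0.75 ± 0.72 (SE, adjusted p = 0.646), and Cox5a, of the respiratory chain, by -0.15 ± 0.07 (SE, adjusted p = 0.351). Irf4, a factor of plasma cells, differed by 0.69 ± 0.32 (SE, adjusted p = 0.331), and Ctnnd1, of adherens junctions, by 0.41 ± 0.15 (SE, adjusted p = 0.241). Of the 7 measured plasma cell genes 2 lay above 0, Irf4 among them, and 5 below, with a list median of -0.49. Olah, which ends milk fatty acid synthesis at medium length, was under the lower quartile in all 6 estradiol and 5 of 6 placebo arrays.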

How the data were processed

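Total RNA of 12 mammary glands was measured on 12 single-colour Affymetrix arrays of 45101 probe sets. The deposited values are log2 intensities, made by the authors with RMA, which corrects the background, equalizes the distributions and summarizes the probes of a set, and with limma 2.9.16, per the submitters' processing notes; the version of RMA and the chip definition are not given in the sources used here. The array medians and the absence of values below 0 were checked. By the platform annotation 34945 probe sets have 1 gene, 932 have several, 9160 have none and 64 are controls. For each of 18193 genes the probe set whose mean over the 12 arrays was highest was used, and 18032 were matched to RefSeq by gene ID. Dim genes were kept.

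A limma model (limma 3.58.1, R 4.3.3) of genotype and treatment with eBayes moderation (9 residual and 2.15 prior degrees of freedom) gave the differences, and a fit of 4 group means the values within genotypes and the interaction. Tests were two-sided, with Benjamini-Hochberg adjustment over 18193 genes. The model was tested on simulated data. Groups came from the sample titles. A gene was dim where all 6 arrays of a treatment lay under the lower quartile of their array.

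The named genes were a fixed set (Ccnd1, Esr1, Esr2, Pgr, Greb1, Areg), the 25 largest common rises, the 19 falls, up to 6 called members of each of 45 gene lists (or the one with the smallest p), and the 8 called genes with the smallest interaction p. Genes given for context beyond these (Krt5, Krt14, Krt8, Trp63, Igf1, Mertk, Ifit3, Xaf1, Bmp8a, Itga2b, Col27a1, Ucp1) were chosen after their values were seen. The lists hold 904 places, of which 843 were measured. The comparison, the lists and the named genes were chosen with earlier results of these data known. Promoters are RefSeq sequences on GRCm38.p6.

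The replicate numbers of the titles do not pair the arrays: over 18 same-numbered pairs, deviations from the group means correlated at -0.74 to 0.66, with 7 above 0.1. Alternatives were the probe set rule, a filter, 2 scalings, the prior, array weights, the replicate block, the model, the threshold, each array left out, 2 arrays left out together, each genotype alone and 3 tissue scores as covariates. Python 3.11.15 with matplotlib 3.10.9 drew the figures.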

Additional observations from a re-analysis of the deposited data

Results flagged for a closer look

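For each of 98 named genes, the 6 arrays of each treatment were examined for 1 array far from the other 5 (Dixon's test at the 95% level, over both genotypes), and 8 of the 196 sets of 6 stood out, where chance gives about 1 in 20. Among estradiol arrays, knockout array 3 was low for Plod2 at 8.30, with the next array at 9.69, and wildtype array 3 was high for Hpca at 8.35, with the next at 7.51. Knockout array 1 was high for Irf4 at 11.7, with the next at 10.5. Among placebo arrays, wildtype array 3 was high for Dact1 at 8.52, with the next at 8.15, and low for P4ha3 at 3.31, with the next at 3.66, where all 6 arrays were dim. Wildtype array 1 was low for Exoc6 at 8.93, with the next at 9.08. Knockout array 2 was high for Egfr at 9.32, with the next at 8.41, and for Fgl1 at 6.59, with the next at 6.17. Plod2, Hpca and Fgl1 were called in all 12 fits without 1 array. All 12 arrays stayed in the fit.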

How the results depend on the processing

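Over 12 fits without 1 array, genes called higher ranged from 61 to 537, lower from 2 to 133, common rises from 61 to 447 and common falls from 2 to 93, and named genes with a called interaction from 0 to 1. Counts are given next as higher, lower, common rises and common falls, against 161, 19, 144 and 17. Array weights gave 2092, 1143, 340 and 93, and the omission of both lymphocyte-poor placebo arrays 2101, 1601, 1777 and 1366. The lymphocyte score as a covariate gave 192, 68, 151 and 34, the muscle score 123, 12, 119 and 11, and the luminal score 33, 0, 33 and 0. A limma threshold of 0.01 gave 51, 0, 51 and 0, and one of 0.10 gave 348, 68, 247 and 51. Fitting 4 group means gave 261, 26, 169 and 22, and centred medians 126, 33, 111 and 32. The common falls were 24 after quantile normalization, and genes called lower by the mean of all probe sets were 13. With the replicate block 74 genes were higher and 1 lower, with 73 common rises and 1 common fall; the titles' numbers do not pair the arrays. The cause of these shifts was not tested.

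All 74 called named genes kept their sign under every alternative run except Cdk16, at 0.0017 by the mean of all probe sets; the filter on dim genes left out 11 of them. Of these 74, array weights left 74 called and the luminal score 16, and 29 kept it in all 12 fits without 1 array. Esr2, not called, turned to 0.041 with array weights, 0.0054 with the luminal score and 0.080 without both placebo arrays, and ranged from -0.087 to 0.038 without 1 array. Ccnd1 was at -0.15 in the 6 knockout arrays alone. Genes near background have their rises compressed, and 5 rises were dim in all placebo arrays. The number of arrays, 3 a group, limits the precision.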

Other observations

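Rises outside the named genes were read through after their values were seen, and are given as values. Metallothionein genes Mt2 and Mt1, which bind zinc and copper, differed by 1.72 and 1.11 in the limma fit, without being common to both genotypes by the rule of no overlap. Penk, encoding the opioid precursor proenkephalin, differed by 1.91 and was likewise not common. Enzymes of conjugation and antioxidant defence among the common rises were Gsta2, at 1.64 or more since all placebo arrays were dim, and the secreted glutathione peroxidase Gpx3, at 1.26. Chst13 and Chst8, which transfer sulfate to sugar chains, differed by 2.10 and 1.27.

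Genes of growth control and hormone reception were also among the common rises. Dusp4, a phosphatase that ends MAP kinase signalling, differed by 1.52, and the matricellular gene Ccn1 by 1.66. Ror2, a Wnt receptor kinase, differed by 1.57. Fkbp5, a chaperone of steroid receptors, differed by 0.54, Rxra, the partner of many nuclear receptors, by 0.86, and Tiparp, a target of the aryl hydrocarbon receptor, by 1.29. Alas1, the first enzyme of heme synthesis, differed by 1.08, and the carbonic anhydrase gene Car12 by 1.01. The circadian repressor gene Nfil3 differed by 1.76.

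In the 161 rises, wildtype placebo array 3 was the highest of its group for 115 genes and knockout placebo array 2 for 86. Over all 18193 genes these numbers were 9016 and 9717. Both arrays were the highest for 76 of the rises (47.2%), against 37.4% of all genes. In the 19 falls the same 2 arrays were both the highest of their groups for 5 genes (26.3%), which is under that share of all genes. These are the placebo arrays poor in lymphocyte genes, and their part in the differences was not tested further.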
